A study of Mus musculus with 6 samples.

Results

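The genes described here are 10 members of the BCL2 family that set the threshold for apoptosis: the survival genes Bcl2, Bcl2l1 and Mcl1, and the BH3-only genes Bcl2l11, Bmf, Bid, Bad, Bik, Hrk and Bbc3. They were taken by name from 19938 genes, and each was read from its probe set with 1 gene symbol and the highest mean over the 6 arrays. All 10 were measured, each by 1 probe set, and no filter on low values was applied. The deposited value is log2 expression per probe set.

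RNA came from mouse pre-B acute lymphoblastic leukaemia cells of the strain C57Bl/6 that had been transformed with BCR-ABL1, the fusion kinase of Philadelphia chromosome-positive leukaemia. All cells carried the genotype Bcor fl/Y, in which the single X-linked copy of Bcor, a corepressor that works with BCL6 and in the polycomb complex PRC1.1, can be deleted by Cre. The Cre-ERT2 group (3 arrays) had been transduced with PMIP-CRE-ERT2, a Cre recombinase switched on by tamoxifen, and the ERT2 group (3 arrays) with PMIP-ERT2, which has the hormone-binding part without Cre. Both groups were given 4-hydroxytamoxifen at 0.5 micromolar for 2 days and selected with puromycin, so that the drug, the selection and the floxed allele are shared and the presence of Cre activity itself is not. Whether the 3 arrays of a group stand for separate cultures or animals is not stated, so the p-values describe the spread between these arrays, which may be technical.

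The intrinsic pathway of apoptosis is governed by proteins of the BCL2 family at the outer mitochondrial membrane. BCL2, BCL-XL (from Bcl2l1) and MCL1 keep the effectors BAX and BAK inactive, and BH3-only proteins bind the survival proteins, or the effectors, and start cell death. In B-cell precursors BIM (from Bcl2l11) is a main driver of the death of unwanted cells, and BCR-ABL1 is known to hold BIM down and to keep survival proteins high.

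Bcor read 9.08, 9.22 and 9.18 on the log2 scale in the Cre-ERT2 arrays, against 10.07, 10.11 and 10.17 in the ERT2 arrays, which checks the labels. Of all genes, 7.03% were called between the groups at a limma adjusted p under 0.05 (4.05% higher and 2.98% lower in Cre-ERT2), and the median log2 fold change was -0.037. Of the calls 57.6% were higher, and 67.9% were after cyclic loess between arrays. Over all other settings this share ran from 39.4% with array weights to 71.2% without Cre-ERT2 replicate 2. In the B-lineage precursor list 13 of 14 markers were measured, led by Igll1, of the surrogate light chain, at 14.25 ± 0.0153 in Cre-ERT2 arrays and 14.20 ± 0.00552 in ERT2 arrays (SD, n = 3 each). The mean log2 level of that list lay between 12.06 and 12.12 in Cre-ERT2 arrays and between 12.10 and 12.15 in ERT2 arrays.

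Of the 10 genes, 3 rose in Cre-ERT2 cells, 0 fell and 7 did not pass the test, where 7.03% of all genes were called. The 3 were Bcl2, which blocks apoptosis, and Bcl2l11 and Bmf, which promote it. Their rises were 1.19-fold, 1.26-fold and 1.29-fold. At an unadjusted p under 0.05, 2 of the 10 were lower, Bcl2l1 and Bid, a count near the share of all genes lower at that threshold (15.0%, and 23.0% in either direction). The median log2 fold change of the 10 genes was -0.05, close to that of all genes.

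Among the survival genes, Bcl2, whose protein sequesters BH3-only proteins at the mitochondrial and endoplasmic reticulum membranes, read 13.22, 13.27 and 13.32 on the log2 scale in the Cre-ERT2 arrays, against 13.02, 13.03 and 13.01 in the ERT2 arrays. All Cre-ERT2 arrays were above all ERT2 arrays, and the ERT2 arrays were nearly equal to each other. The means were 13.27 ± 0.0479 in Cre-ERT2 and 13.02 ± 0.00858 in ERT2 (SD, n = 3 each), a difference of 0.25 on the log2 scale (SE 0.0396, limma adjusted p = 0.00697). As a linear ratio this was 1.19-fold, with a 95% interval of 1.11 to 1.26. A change of larger size, in either direction, was seen in 4.27% of all genes.

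Bcl2l1, which gives the survival protein BCL-XL and, by another splice site, a short form that promotes death, read 10.01, 10.09 and 10.20 in the Cre-ERT2 arrays, against 10.23, 10.33 and 10.24 in the ERT2 arrays. The groups did not overlap, with Cre-ERT2 below ERT2, but Cre-ERT2 replicate 3 lay close to ERT2 replicate 1. The log2 fold change was -0.17 (SE 0.0557) and missed the threshold (limma adjusted p = 0.121, 95% interval 0.816-fold to 0.973-fold). Without Cre-ERT2 replicate 3, the array nearest to the ERT2 group, it was -0.22 and the adjusted p was 0.04996. Leaving out any other single array brought no call, with log2 fold changes as small as -0.12 and a limma adjusted p of up to 0.303. The single probe set does not separate the splice forms.

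Mcl1, a short-lived survival protein that B-cell precursors depend on, read 11.85, 11.85 and 11.90 in the Cre-ERT2 arrays, against 11.82, 11.75 and 11.80 in the ERT2 arrays. Cre-ERT2 arrays were again all above ERT2 arrays, by a small margin. The log2 fold change of 0.08 (SE 0.0395) did not pass the test (limma adjusted p = 0.274). Its 95% interval ran from 0.992-fold to 1.12-fold, so the 1.19-fold estimate of Bcl2 lies outside it. The 95% interval of Bcl2 (1.11-fold to 1.26-fold) overlaps that of Mcl1, and the difference between the 2 genes was not tested.

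Among the BH3-only genes, Bcl2l11 read 11.11, 11.03 and 10.98 on the log2 scale in the Cre-ERT2 arrays, against 10.74, 10.70 and 10.68 in the ERT2 arrays. Every Cre-ERT2 array was higher than every ERT2 array. The means were 11.04 ± 0.0617 in Cre-ERT2 and 10.71 ± 0.0281 in ERT2 (SD, n = 3 each), a difference of 0.33 on the log2 scale (SE 0.0438, limma adjusted p = 0.00269). This was a 1.26-fold rise with a 95% interval of 1.17 to 1.35. The gene makes several BIM isoforms of different potency, which 1 probe set reads together.

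Bmf, whose protein is held on the cytoskeleton through a dynein light chain until it is released, read 10.20, 10.25 and 10.28 in the Cre-ERT2 arrays, against 9.87, 9.83 and 9.90 in the ERT2 arrays. The groups were apart by more than the range within either of them. The means were 10.24 ± 0.0418 in Cre-ERT2 and 9.87 ± 0.0347 in ERT2 (SD, n = 3 each). Its rise of 0.37 on the log2 scale (SE 0.0407, limma adjusted p = 0.000952) was the largest of the 10 and corresponded to 1.29-fold (95% interval 1.21 to 1.38). Only 1.79% of all genes had a larger change in size than Bmf, and 2.34% a larger one than Bcl2l11.

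**Figure D1:**
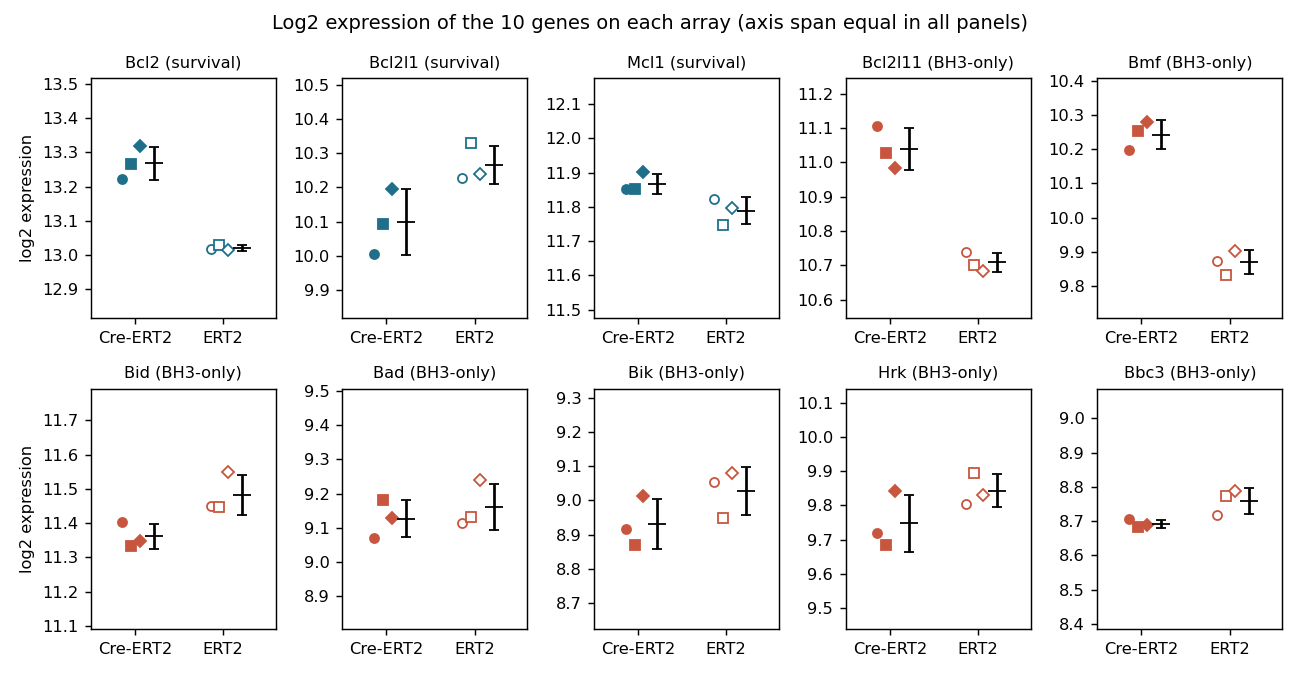
Log2 expression (vertical axis) of each gene on the 3 Cre-ERT2 arrays (filled) and the 3 ERT2 arrays (open); circle, square and diamond are replicates 1, 2 and 3, and the bar beside them is the mean with its SD. Bcl2, Bcl2l11 and Bmf lie higher in every Cre-ERT2 array, while Bad, Bik and Hrk overlap between the groups.

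The sequences just before the transcription starts of the 3 genes that rose are shown because FOXO factors are known to drive Bcl2l11 from a site in its promoter, and because BCL6, the DNA-binding partner of BCOR, prefers a sequence close to that of the STAT factors. They are the 250 bases before the most upstream RefSeq start of each gene in GRCm38.p6, on the strand of the gene: Bcl2 at chr1:106714291-106714540 (minus strand), Bcl2l11 at chr2:128125788-128126037 (plus strand) and Bmf at chr2:118549687-118549936 (minus strand). Capitals mark the FOXO motif GTAAACA and the GC box GGGCGG, which binds SP1-type factors, on either strand.
Bcl2: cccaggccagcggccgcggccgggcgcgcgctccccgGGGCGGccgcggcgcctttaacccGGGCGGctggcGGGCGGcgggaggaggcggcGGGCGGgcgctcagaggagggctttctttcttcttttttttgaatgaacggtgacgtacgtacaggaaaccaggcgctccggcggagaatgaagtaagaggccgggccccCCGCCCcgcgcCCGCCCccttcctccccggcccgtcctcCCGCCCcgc
Bcl2l11: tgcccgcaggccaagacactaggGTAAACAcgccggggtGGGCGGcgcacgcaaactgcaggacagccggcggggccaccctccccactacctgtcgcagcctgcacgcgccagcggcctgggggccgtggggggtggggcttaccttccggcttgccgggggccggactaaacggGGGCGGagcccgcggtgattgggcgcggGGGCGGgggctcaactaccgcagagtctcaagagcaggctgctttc
Bmf: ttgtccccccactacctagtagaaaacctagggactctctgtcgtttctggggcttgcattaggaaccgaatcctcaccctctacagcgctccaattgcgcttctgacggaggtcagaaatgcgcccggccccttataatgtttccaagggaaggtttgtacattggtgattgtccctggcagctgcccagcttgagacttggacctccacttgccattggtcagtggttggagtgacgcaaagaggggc

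The FOXO motif stood in the Bcl2l11 window, from 227 to 221 bases before the start, and in 3.17% of the 32851 windows of that length over all genes. Of the 10 genes 9 had a window, and Bcl2l11 was the 1 of those 9 with the motif. The windows of Bcl2l1, Mcl1, Bid and Bbc3 lie wholly or partly within the annotated span of the gene, unlike the windows shown above. The Bcl2 window held 7 GC boxes and the Bcl2l11 window 3, and the Bmf window had 0. GC boxes were found in 7 of the 9 windows and in 32.7% of all windows, so they do not set apart the genes that rose. The STAT-type motif TTCNNNGAA, searched on both strands, was in 0 of the 9 windows and in 7.02% of all windows. The BCL6 motif TTCCTAGAA, which is a case of the STAT-type motif, was in 0 of the 9 and in 0.347% of all windows. The Bcl2, Bcl2l11 and Bmf windows held 36, 24 and 8 CpG, and those of the other 6 genes with a window between 12 and 27, against a median of 6 over all windows, so CpG content does not set apart the genes that rose either. Each of the 9 members gave 1 window, that of the most upstream start with a window. For Bcl2l1, Mcl1, Bid and Bbc3 that start lies inside the annotated span of the gene. The windows over all genes include more than 1 for some genes. The shares are thus not of like units. A match of letters is a description and not a bound site.

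The other BH3-only genes had log2 fold changes between -0.12 and -0.03 and none passed the test. Bid, which caspase 8 cleaves to link death receptors to mitochondria, read 11.40, 11.33 and 11.35 in the Cre-ERT2 arrays, against 11.45, 11.45 and 11.55 in the ERT2 arrays. Its arrays did not overlap, Cre-ERT2 lying below, and the log2 fold change was -0.12 (SE 0.0440, limma adjusted p = 0.149).

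Bbc3, which encodes PUMA, a mediator of p53-driven death, read 8.71, 8.68 and 8.69 in the Cre-ERT2 arrays, against 8.72, 8.77 and 8.79 in the ERT2 arrays. All Cre-ERT2 arrays lay below, the nearest only just, and the log2 fold change was -0.07 (limma adjusted p = 0.327). A rise of more than 1.01-fold was outside its 95% interval.

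Hrk, a BH3-only gene best known from neurons, read 9.72, 9.68 and 9.84 in the Cre-ERT2 arrays, against 9.80, 9.90 and 9.83 in the ERT2 arrays. Cre-ERT2 replicate 3 lay among the ERT2 arrays. Its log2 fold change was -0.09 (limma adjusted p = 0.307).

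Bik, whose protein sits on the endoplasmic reticulum, read 8.92, 8.87 and 9.01 in the Cre-ERT2 arrays, against 9.06, 8.95 and 9.08 in the ERT2 arrays. The groups overlapped through Cre-ERT2 replicate 3 and ERT2 replicate 2. The log2 fold change was -0.10 (limma adjusted p = 0.319).

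Bad, which AKT and other survival kinases phosphorylate and inactivate, read 9.07, 9.18 and 9.13 in the Cre-ERT2 arrays, against 9.11, 9.13 and 9.24 in the ERT2 arrays. The groups overlapped, and the difference had no stable sign: -0.03 on the log2 scale as reported, and 0.01 without ERT2 replicate 3 or with array weights. Its 95% interval ran from 0.904-fold to 1.06-fold.

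**Figure D2:**
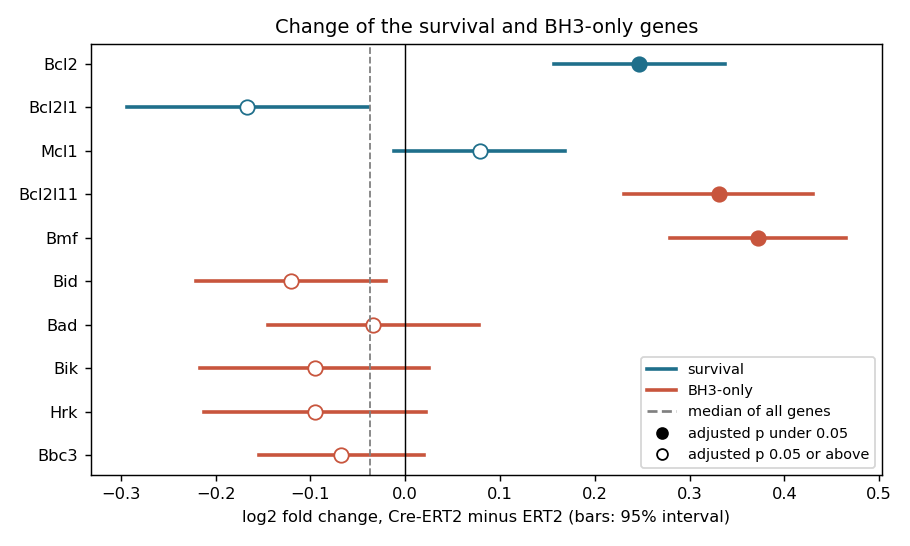
Log2 fold change, Cre-ERT2 minus ERT2 (horizontal axis), of each gene with its 95% interval; filled circles passed an adjusted p of 0.05, and the dashed line is the median of all genes. The intervals of Bcl2, Bcl2l11 and Bmf lie wholly above 0, those of Bcl2l1 and Bid wholly below 0 without passing the adjusted threshold, and the other 5 include 0.

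Without regard to the test, the Cre-ERT2 arrays were all above the ERT2 arrays for 4 of the 10 genes (Bcl2, Mcl1, Bcl2l11, Bmf), as they were for 9.56% of all genes (29.9% were apart in either direction). They were all below for 3 (Bcl2l1, Bid, Bbc3), as for 20.3% of all genes. The count of genes that lay below is thus near what the whole array shows.

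**Figure D3:**
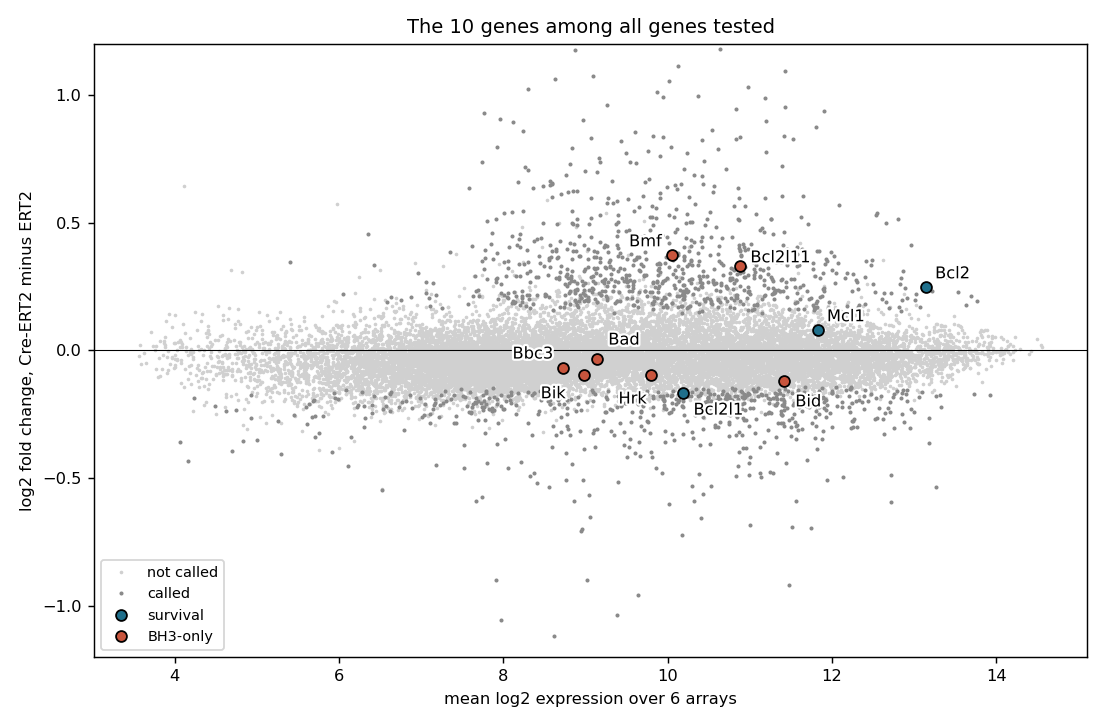
Log2 fold change, Cre-ERT2 minus ERT2 (vertical axis), against mean log2 expression over the 6 arrays (horizontal axis) for all genes, with called genes in dark grey and the 10 genes in colour; 6 genes beyond 1.2 on the log2 scale are outside the frame. Bmf, Bcl2l11 and Bcl2 lie in the upper band of called genes, and the other 7 in the bulk.

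Because death and survival members are weighed against each other in the cell, the unequal changes within an array are given as a description, with no test. Of the BH3-only genes only Bcl2l11 and Bmf, which rose, were paired, and the others, all with negative log2 fold changes, were not. The pairs were chosen with earlier results known, so the gains below do not describe the BH3-only genes as a group. The log2 difference Bcl2l11 minus Bcl2l1 was 1.10, 0.93 and 0.79 in the Cre-ERT2 arrays and 0.51, 0.37 and 0.45 in the ERT2 arrays, so the BH3-only gene gained 0.50 over the survival gene. The difference Bcl2 minus Bcl2l1, of 2 survival genes, gained 0.41, with 3.22, 3.17 and 3.12 in Cre-ERT2 arrays and 2.79, 2.70 and 2.78 in ERT2 arrays. Neither pair overlapped between the groups. That had to follow, since Bcl2l11 and Bcl2 were higher in every Cre-ERT2 array and Bcl2l1 was lower. The fall of Bcl2l1 itself was not called (limma adjusted p = 0.121).

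The difference Bcl2l11 minus Bcl2 was -2.12, -2.24 and -2.33 in the Cre-ERT2 arrays and -2.28, -2.33 and -2.33 in the ERT2 arrays. These overlapped between the groups, and the mean gain of Bcl2l11 over Bcl2 was 0.08. The difference Bmf minus Bcl2 gained 0.13 and did not overlap. Of the other pairs read, Bmf gained 0.54 over Bcl2l1 and 0.29 over Mcl1, and Bcl2l11 gained 0.25 over Mcl1. Bmf minus Bcl2l11 gained 0.04 and overlapped between the groups. These differences show unequal change between probe sets, not the ratio of the transcripts or proteins.

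Of 17 other BCL2 family genes 13 were measured and 0 were called by limma, and at an unadjusted p under 0.05, 1 was higher and 2 were lower, a share like the 23.0% of all genes. Their log2 fold changes ran from -0.11 to 0.13, with a median of 0.003. The effector gene Bak1 was at 0.003 (SE 0.0560) and its relative Bok at 0.003 (SE 0.0443). Pmaip1, which encodes the BH3-only protein NOXA, an antagonist of MCL1, was at 0.02 (SE 0.0426). These 3 were named after their values were seen. The 2 genes of smallest p were Bcl2a1c, of the survival protein family A1, at 0.13 (limma adjusted p = 0.103) and Bnip3, a BH3-like mitophagy receptor, at -0.11 (adjusted p = 0.107). Bax, Bcl2a1a, Bcl2a1b and Bcl2a1d were not analysed here, and Bcl2a1c has close relatives whose transcripts its probes may also read.

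Downstream of the effectors, 13 of 15 genes of the mitochondrial step and the inhibitor of apoptosis family were measured, of which 1 rose, 0 fell and 12 did not pass. Over all genes 4.05% were called higher and 2.98% lower. At an unadjusted p under 0.05, 1 was higher and 1 lower, where 23.0% of all genes pass. The gene that rose was Diablo, whose protein SMAC leaves the mitochondria and blocks inhibitors of apoptosis. It read 11.15, 11.17 and 11.09 in the Cre-ERT2 arrays, against 10.95, 10.99 and 10.94 in the ERT2 arrays, 0.18 higher on the log2 scale (SE 0.0395, limma adjusted p = 0.0326). The groups did not overlap, but leaving out any single array other than Cre-ERT2 replicate 3 ended the call, with an adjusted p of up to 0.139. The channel genes of the outer membrane Vdac2 (-0.09, adjusted p = 0.186) and Vdac3 (-0.09, adjusted p = 0.270) had the next smallest p.

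Of 28 genes whose products bind, modify or degrade the members, 24 were measured, with 3 higher, 0 lower and 21 not called. At an unadjusted p under 0.05, 3 were higher and 2 lower, near the 23.0% of all genes. Dynll2, the dynein light chain that tethers BMF, read 10.85, 10.86 and 10.84 in the Cre-ERT2 arrays, against 10.59, 10.62 and 10.60 in the ERT2 arrays. It rose by 0.24 on the log2 scale (SE 0.0353, limma adjusted p = 0.00433), with no overlap, and kept its call with each array left out in turn. Its relative Dynll1, the light chain that binds BIM, was at 0.05 (SE 0.0388, adjusted p = 0.517) and was picked with its values in view. The difference between the light chains was not tested.

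The other 2 of that list that rose were Itpr3, a calcium channel of the endoplasmic reticulum that BCL2 binds (0.16, SE 0.0382, limma adjusted p = 0.0379), and Ppp3ca, the catalytic subunit of calcineurin, which dephosphorylates BAD (0.16, SE 0.0399, adjusted p = 0.0481). Leaving out any single array ended each of these 2 calls, with an adjusted p of up to 0.106 for Itpr3 and 0.171 for Ppp3ca. The kinase gene Mapk8, which encodes JNK1, was at -0.11 (adjusted p = 0.147) and Casp2 at -0.09 (adjusted p = 0.191).

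Of 25 transcription factors and cofactors reported to act on the members, 23 were measured, of which 1 rose, 5 fell and 17 did not pass. Bcor, the targeted gene, is 1 of the 5 that fell. Over all genes 4.05% were called higher and 2.98% lower. At an unadjusted p under 0.05, 3 of the list were higher and 5 lower, where 23.0% of all genes pass. Foxo1, of the FOXO factors that activate Bcl2l11 and Bbc3, read 11.62, 11.59 and 11.78 in the Cre-ERT2 arrays, against 11.91, 11.95 and 11.92 in the ERT2 arrays. It fell by 0.26 on the log2 scale (SE 0.0542, limma adjusted p = 0.0240). Any link between Foxo1 and Bcl2l11, which has the FOXO motif shown above, was not tested. Leaving out any single array other than Cre-ERT2 replicate 3 ended the Foxo1 call (adjusted p up to 0.102), as did the replicate number as a block (0.0684). Its relative Foxo3 was at 0.04 (SE 0.0470) and Foxo4 at -0.03 (SE 0.0444), both chosen after their values were seen.

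Atf4, the factor of the amino acid and stress response, fell by 0.28 (SE 0.0378, limma adjusted p = 0.00283), and Ddit3, which encodes CHOP, an activator of Bcl2l11 under endoplasmic reticulum stress, fell by 0.21 (SE 0.0459, adjusted p = 0.0309). Jun, reported to act on Bcl2l11 in neurons, rose by 0.31 (SE 0.0370, adjusted p = 0.00167), and Egr1 fell by 0.25 (SE 0.0512, adjusted p = 0.0209). The Ddit3 call did not survive the loss of any single array but Cre-ERT2 replicate 3 (adjusted p up to 0.116), nor that of Egr1 the loss of replicate 1 or 2 of Cre-ERT2 or replicate 1 or 3 of ERT2 (up to 0.0892). Bcl6 was at 0.14 (adjusted p = 0.0742) and Stat5b, a driver of Bcl2l1 and Mcl1 downstream of BCR-ABL1, at 0.14 (adjusted p = 0.127).

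**Figure D4:**
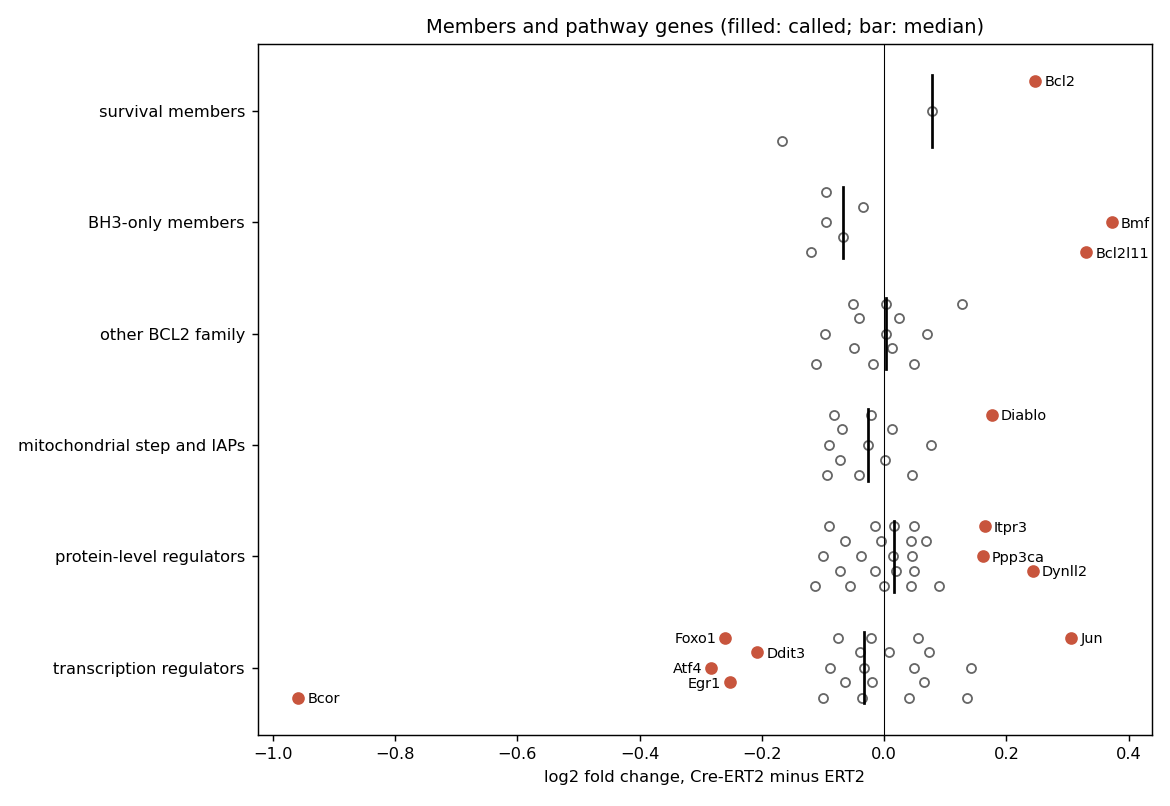
Log2 fold change, Cre-ERT2 minus ERT2 (horizontal axis), of each measured gene, by list (rows, with points spread vertically so that they can be seen); filled circles were called, and the bar is the median of a row. The members Bcl2, Bcl2l11 and Bmf and the genes Diablo, Itpr3, Ppp3ca, Dynll2 and Jun lie to the right of 0, and the called transcription regulators other than Jun lie to the left.

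The genes whose values followed those of the 3 called members most closely over the 6 arrays are given by Pearson's r, as a description: arrays of a group share their group difference, so a high r is common. With Bcl2 these were the phosphatase gene Ptpn14 (r = 0.998, log2 fold change 0.62) and Cmpk2, a mitochondrial nucleotide kinase (r = 0.998, 0.44), and 388 genes had an r above 0.95. With Bmf they were the DNA sensor Tlr9 (r = 0.999, 0.65) and the apolipoprotein gene Apof (r = 0.997, 0.44), of 524 genes above 0.95. With Bcl2l11 they were the SLAM family receptor Slamf6 (r = 0.998) and Spcs2, of the signal peptidase (r = 0.997), of 302 genes above 0.95. Slamf6 and Spcs2 themselves did not pass the test, at 0.11 (limma adjusted p = 0.119) and 0.07 (adjusted p = 0.306).

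Markers of other cells were read on the same arrays, since in bulk RNA a change in the share of cells and a change per cell cannot be told apart. Of 13 B-lineage precursor markers 2 rose (Dntt by 0.86, Cd24a by 0.19) and 3 fell (Rag2 by 0.71, Il7r by 0.60, Rag1 by 0.38). Over all genes 7.03% were called. At an unadjusted p under 0.05, 3 of these markers were higher and 4 lower, where 23.0% of all genes pass. The Cd24a call ended without replicate 1 or 2 of Cre-ERT2 or any 1 of the ERT2 arrays (adjusted p up to 0.171). Among 12 myeloid markers, Lyz2 rose by 0.45 (limma adjusted p = 0.00488) and 0 fell, and Cd68 was at 0.05. Of these 12, 1 was higher and 3 were lower at an unadjusted p under 0.05, where 23.0% of all genes pass. The log2 fold change was negative for 7 of the 12. The mean log2 level of the myeloid list was between 7.98 and 8.01 in Cre-ERT2 arrays and between 7.97 and 7.999 in ERT2 arrays.

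Of 11 T and NK cell markers Cd28 rose by 0.39 and Ncr1 fell by 0.23, with a mean log2 level of 7.99 to 8.02 in Cre-ERT2 arrays and 7.97 to 8.06 in ERT2 arrays. The marker of highest mean level was Cd5, with a log2 fold change of 0.06. Over all genes 7.03% were called. At an unadjusted p under 0.05, 1 of the 11 was higher and 3 were lower, where 23.0% of all genes pass. The Ncr1 call ended without Cre-ERT2 replicate 1 (adjusted p = 0.0529). None of 10 stromal markers was called by limma (0 higher and 3 lower at an unadjusted p under 0.05, where 15.0% of all genes are lower), led in level by Col1a1 (-0.08) and Col1a2 (-0.10). None of 8 erythroid and megakaryocyte markers was called (0 higher and 1 lower at an unadjusted p under 0.05), led by Itga2b (-0.04) and Slc4a1 (-0.14). The stromal mean log2 level was 8.11 to 8.12 in Cre-ERT2 arrays and 8.13 to 8.21 in ERT2 arrays, and the erythroid and megakaryocyte one 8.32 to 8.39 in Cre-ERT2 arrays and 8.37 to 8.38 in ERT2 arrays. The deposited values hold no detection call, so no marker can be named absent, and the part of these markers in the rises of Bcl2, Bcl2l11 and Bmf was not tested.

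The 3 calls were then followed over 16 other settings. Bmf stayed called in all 16, with an adjusted p of up to 0.0103 and log2 fold changes between 0.35 and 0.40. Bcl2l11 stayed called in all 16 (adjusted p up to 0.0153, log2 fold changes between 0.30 and 0.36), and so did Bcl2 (adjusted p up to 0.0362, log2 fold changes between 0.22 and 0.27).

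**Figure D5:**
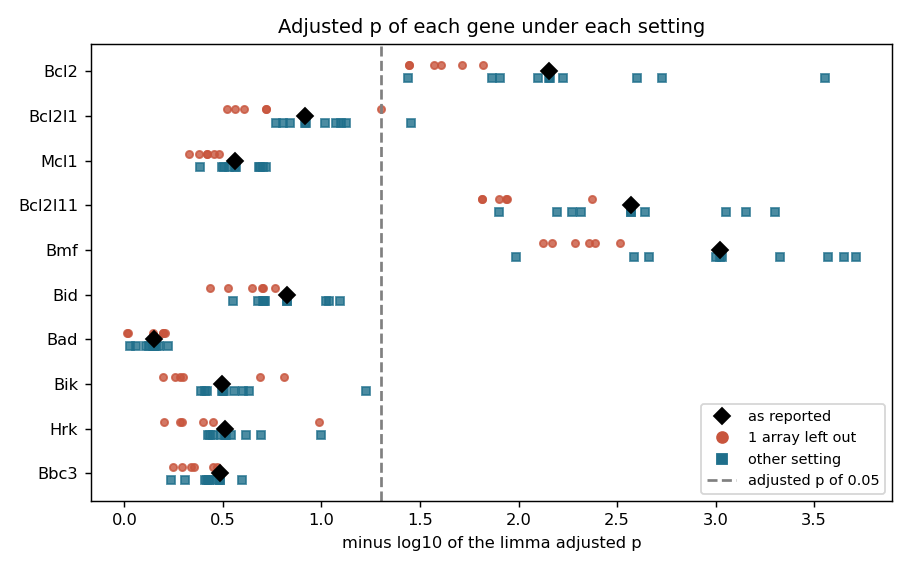
Minus log10 of the limma adjusted p (horizontal axis) of each gene as reported (diamond), with 1 array left out (circles, 6 per gene) and under 10 other settings (squares); the dashed line is an adjusted p of 0.05. Bcl2, Bcl2l11 and Bmf stay to the right of the line throughout, Bcl2l1 crosses it in 2 settings, and the other 6 stay to the left.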

How the data were processed

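Expression was measured in 6 arrays, 3 of Cre-ERT2 and 3 of ERT2 cells. The values the authors deposited are on the log2 scale, 1 per probe set. Per the submitters' processing notes the tools were RMA and Partek 6.5, without role or order. The genome build and background setting are not given in the sources used here. A probe set reads all isoforms it covers together. The number of arrays limits the precision (median residual SD 0.0587, median SE 0.0477, log2).

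Of 35556 probe sets, 21789 have 1 gene symbol in the platform's annotation, 1621 several (not used) and 12146 none. Gene identifiers of 21698 matched the GRCm38.p6 gene table. With 1 probe set per gene (highest mean), 19938 genes were fitted with limma 3.58.1 in R 4.3.3 (lmFit, eBayes without trend, all 6 arrays), with Benjamini-Hochberg adjustment over all genes and calls at an adjusted p under 0.05. Intervals are at 95%. The pipeline was tested on simulated data. Alternatives were a replicate block, an intensity trend, array weights, other normalizations (quantile, median, cyclic loess), dropping the dimmest 30% of genes, averaged or unselected probe sets, a looser threshold of 0.1, and leaving out each array. Promoter windows came from RefSeq (GRCm38.p6) and were searched in Python 3.11.15.

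The members, lists and tests were chosen with earlier results of these data known. Named were the 10 members, Bcor, each called gene of 4 pathway lists and the 2 of smallest p not called, the 2 genes most correlated with each called member, and from marker lists each called gene and the 2 of highest level. Other names are marked as chosen after seeing values.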

Additional observations from a re-analysis of the deposited data

How the results depend on the processing

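The 10 genes gave 160 values over 16 alternatives: 156 kept their direction and side of the threshold, Bcl2l1 came under it in 2 (array weights, -0.17, adjusted p = 0.0353; without Cre-ERT2 replicate 3), and Bad changed sign in 2 (0.00609 with array weights, and between -0.0607 and 0.00506 with 1 array left out). The number of members called was 3 or 4 throughout. The threshold of 0.1 could not end a call, and averaging probe sets could not change the values of members with 1 probe set. The count of all genes called, 1402 as reported, was 805 with the replicate block, 3339 with array weights (1315 higher, 2024 lower), 2271 at an adjusted p under 0.1 (1081 higher, 1190 lower) and between 743 (without Cre-ERT2 replicate 2) and 1341 with 1 array left out. Of the calls, 57.6% were higher as reported, 67.9% after cyclic loess, 39.4% with array weights and 47.6% at an adjusted p under 0.1.

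Other BCL2 family calls, 0 as reported, were 1 with an intensity trend, 2 with array weights and 0 with any array left out. Mitochondrial step calls, 1 as reported, were 2 with the trend, 0 with the replicate block, quantile normalization, median centring or all non-control probe sets, and between 0 and 1 with 1 array left out. Calls of protein-level regulators, 3 as reported, were 1 with the replicate block, median centring, all non-control probe sets or any array left out. Calls of transcription regulators, 6 as reported, were 4 with the replicate block (Foxo1, adjusted p = 0.0684, and Ddit3, 0.0785, were lost), 8 with array weights (3 higher), and between 3 and 6 with 1 array left out. The cause of these shifts was not tested.

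Same-numbered arrays did not deviate together (r of 0.05, -0.09 and -0.26 over 19938 genes), and the highest r was 0.31, between Cre-ERT2 replicate 3 and ERT2 replicate 2, so the number was not taken as pairing. With it as a replicate block, all 3 member calls stayed (Bcl2 adjusted p = 0.0362, Bcl2l11 0.0126, Bmf 0.0103).

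Without probe-level signal, detection limits are unknown. With 3 arrays a group, Mcl1 and the uncalled members did not pass the adjusted threshold as reported, which does not show that they were unchanged.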
